A study of Mus musculus with 3 samples.

Results

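Long-term haematopoietic stem cells (LT-HSCs) of aged mouse bone marrow held 1086 strong open sites far from any protein-coding gene start. A site was a 500 bp window of chromosomes 1 to 19 that lay more than 50 kb from every protein-coding transcription start site (TSS) and was overlapped by at least 300 ATAC fragments, with neighbouring windows merged. The members were chosen by measured values, namely the fragments summed over all kept cells, so their totals and their distances are a description and support nothing. The 1086 sites covered 1495 windows, 4.87% of the 30715 autosomal windows that reached 300 fragments, while 49% of all autosomal windows lay that far from a coding start. Of the sites, 770 were a single window and the widest spanned 13. The windows just inside the threshold, at 300 fragments each, lay nearest to Pdcd1, Ahctf1 and Pkdcc, and those just outside, with 1 fragment fewer, nearest to Osbpl8, Atp23 and Rnaseh2b.

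LT-HSCs are the stem cells that can rebuild the blood of a transplanted host over the long term, and here they came from wild-type female C57BL/6 mice aged 24 months. Bone marrow was enriched for c-Kit and LT-HSCs were sorted as LSK CD150+CD48-CD34- cells, and their accessible chromatin, RNA and surface antibody tags were read from the same cells by DOGMA-seq. Each assay gave 1 library, so that the 3 libraries stem from a single pool, and the sources used here do not state how many mice were pooled. There was thus 1 sample and no replicate spread, and no test was run. All intervals below are exact 95% intervals of counts or shares, or order-statistic intervals of a median. They take fragments, cells, sites or pairs of sites as independent, although pairs share sites and cells, and cover no spread between mice or libraries.

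The site levels rested on 37751832 autosomal fragments of 3629 cells, with a median of 10080 per cell. All 3724 barcodes of the antibody table were among the 4369 called cells, and 3629 of them carried at least 10 antibody tags. Fragments within 1 kb of the outermost annotated start of 8 HSC marker genes had a median of 517 per gene, from 19 at that start of Mecom, which has others, to 1681 at Kit. The medians were 48 for 5 B-cell markers (range 2 to 245), 21 for 5 T-cell markers (3 to 27), 20 for 5 granulocyte and monocyte markers (5 to 85) and 279 for 5 erythroid markers (13 to 527). No marker of the other cell types was at 0.

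ATAC-seq uses the transposase Tn5 to cut DNA where it is not wrapped in a nucleosome, so that fragments pile up at promoters and enhancers. An enhancer is a stretch of DNA that binds transcription factors and can act on a gene over long distances, and stem cells are known to rely on such elements for genes like Myc and Runx1. Factors of the ETS, RUNX and GATA families bind many blood cell enhancers, while CTCF anchors chromatin loops. Open DNA far from coding genes can also be a promoter of a noncoding RNA, and copies of one sequence at several places can draw reads to the wrong copy.

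The 4 sequences below show what such a site looked like, each as 300 bases of mm10, plus strand, centred on the densest point of Tn5 insertion. The Gsdmc site was the strongest of 3 in the distal Myc region, the Runx1 site had the most motif matches within these 300 bases among sites nearest to HSC regulator genes, the Zfp36l2 site was the deepest of those with the next most, and the Nrp2 site had among the largest differences by CD274. The Runx1 and Zfp36l2 windows were picked for their matches, which are therefore no result. Capitals mark matches on either strand of the ETS word AGGAAG, the RUNX word TGTGGT, the GATA word AGATAA, the AP-1 word TGANTCA, the E-box CAGCTG, the KLF/SP word GGGCGGG and the CTCF consensus. A match is a description and not a binding site.
Gsdmc site, chr15:63648196-63648495: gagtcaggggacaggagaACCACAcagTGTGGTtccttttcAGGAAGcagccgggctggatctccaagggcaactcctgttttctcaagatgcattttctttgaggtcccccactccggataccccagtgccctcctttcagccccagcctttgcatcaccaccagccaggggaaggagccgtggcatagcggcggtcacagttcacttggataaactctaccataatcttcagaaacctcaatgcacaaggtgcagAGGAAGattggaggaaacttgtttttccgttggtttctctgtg
Runx1 site, chr16:93197351-93197650: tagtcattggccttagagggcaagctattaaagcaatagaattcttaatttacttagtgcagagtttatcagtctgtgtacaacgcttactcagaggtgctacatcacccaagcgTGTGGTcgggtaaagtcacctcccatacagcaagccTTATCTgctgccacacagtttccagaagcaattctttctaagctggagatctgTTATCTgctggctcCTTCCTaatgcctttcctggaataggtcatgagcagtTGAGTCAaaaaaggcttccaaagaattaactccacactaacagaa
Zfp36l2 site, chr17:84026102-84026401: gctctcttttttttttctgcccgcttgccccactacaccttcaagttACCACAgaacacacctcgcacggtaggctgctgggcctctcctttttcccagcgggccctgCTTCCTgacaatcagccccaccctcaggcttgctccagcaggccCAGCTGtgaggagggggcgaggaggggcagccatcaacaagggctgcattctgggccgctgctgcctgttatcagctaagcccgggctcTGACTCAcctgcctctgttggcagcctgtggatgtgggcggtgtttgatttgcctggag
Nrp2 site, chr1:62760191-62760490: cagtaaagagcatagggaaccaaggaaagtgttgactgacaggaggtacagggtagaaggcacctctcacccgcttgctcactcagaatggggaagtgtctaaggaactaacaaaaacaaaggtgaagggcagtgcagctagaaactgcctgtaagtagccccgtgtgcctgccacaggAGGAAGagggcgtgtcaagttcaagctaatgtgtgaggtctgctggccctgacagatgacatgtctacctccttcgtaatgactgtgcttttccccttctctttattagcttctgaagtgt

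The Gsdmc window held 2 ETS and 2 RUNX matches, the RUNX matches lying close together on opposite strands. The Runx1 window held 2 GATA matches and 1 each of ETS, RUNX and AP-1, and it reached to the left of the site, whose densest insertion was at its first base, so that the RUNX match lay outside the site. The Zfp36l2 window held 1 match each of ETS, RUNX, AP-1 and CAGCTG, and the Nrp2 window held 1 ETS match.

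Most sites were modestly open. The strongest window of a site held a median of 428 fragments (quartiles 352 and 606), and 75 sites held over 1000. Together these windows held 600302 fragments, 1.59% of all autosomal fragments. A site had a fragment in 6.83% of cells at the lowest (95% interval 6.03% to 7.7%), in 10.4% at the median (9.47% to 11.5%) and in 85.5% at the highest (84.3% to 86.6%), with a median of 0.118 fragments per cell. The plot of fragments against distance gives both values for every site.

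**Figure D1:**
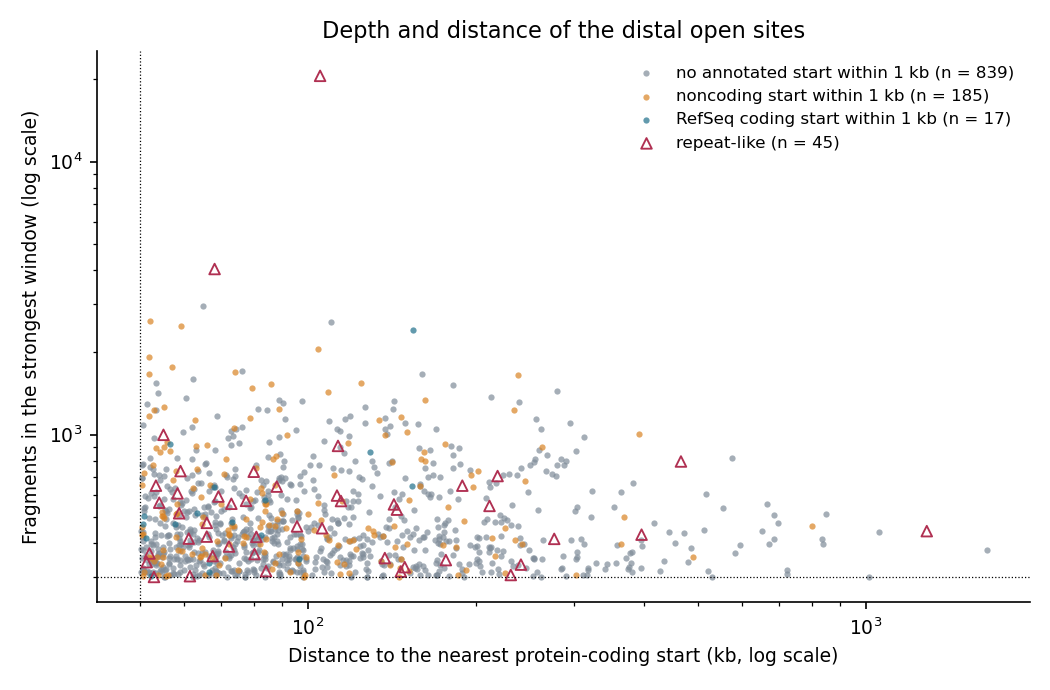
Each point is 1 of the 1086 sites, with the distance of its strongest window to the nearest protein-coding start in kb (log scale) across and the fragments in that window (log scale) up. Dotted lines are the 50 kb and 300 fragment limits of the rule, colours give the annotated starts nearby, and the 45 repeat-like sites are triangles; the highest triangle is the window at 20600 fragments.

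The sites lay a median of 89843 bp from the nearest coding start (quartiles 65860 and 150590 bp), 169 lay more than 200 kb away and 24 more than 500 kb away. The 3 farthest lay outside genes. The site nearest to Cntnap5b, at chr1:101902001-101902500, was 1649621 bp away with 379 fragments, the site nearest to Adgrl3, at chr5:79735001-79735500, was 1284888 bp away with 443, and the site nearest to Slit2, at chr5:46926501-46927000, was 1056388 bp away with 441. The Adgrl3 site counted as repeat-like, with 53.2% of its bases masked. The Cntnap5b site did not, but it matched another place in the genome over 521 aligned bases at 89.3% identity. By GENCODE, 830 sites lay outside protein-coding genes, 242 in an intron and 14 in an exon. Chromosome 13 held the most sites (81) and chromosome 19 the fewest (18), and 373 sites had another site within 50 kb.

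Distance from a coding start did not mean distance from any annotated start. Within 1 kb of the window, 191 sites had the start of a noncoding transcript and 23 had a coding start in RefSeq that GENCODE lacked, and 872 had neither. Within 50 kb, 94 sites had a coding start in RefSeq. A ratio of observed to expected CpG above 0.6, typical of CpG island promoters, was found in 59 of the 872 sites with no start, 46 of the 191 with a noncoding start and 7 of the 23 with a RefSeq coding start. The median GC content of the sites was 49.8%, against 39.8% over all distal windows and 61% over the 21874 strong windows at coding starts with known bases.

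Several of the strongest sites carried such a start. Setting repeat-like sites apart, the highest totals were 2953 fragments nearest to Cr2, 2607 nearest to Wnt7b, 2585 nearest to Gm8797, 2489 nearest to Gm42906 and 2423 nearest to Smim15. The Wnt7b site (chr15:85634501-85635000, 67% GC) lay at the start of the noncoding D130051D11Rik, and the Gm42906 site (chr5:151368501-151369000, 69.6% GC) 75 bp from the start of 1700028E10Rik. The Smim15 site (chr13:107890001-107890500) lay 186 bp from a start of Zswim6 in RefSeq. The next were nearest to Zfat (2059 fragments), Zfp958 (1921), Tspan9 (1761), Chd2 (1710) and Rab10 (1689), and of these only the Chd2 site had no start within 1 kb. The Cr2 site (chr1:195241501-195242000) had a fragment in 52.1% of cells (95% interval 50.5% to 53.7%) and the Gm8797 site (chr3:5860501-5861000) in 39.8%. Both had no start within 1 kb and both held a stretch copied elsewhere in the genome, of 392 bp at 89.5% identity and of 318 bp at 92.1%. The Tspan9 site held such a stretch too, of 332 bp at 86.1%.

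The sites were nearest to 785 genes, of which 598 had 1 site and 25 had at least 4 once repeat-like sites were left out. Nfe2l3, a bZIP transcription factor, had 8 sites between 69920 and 302920 bp from its start, with 4955 fragments in all. Haao, an enzyme of tryptophan breakdown, Mkln1 and Smad7, the inhibitory SMAD of TGF-beta signalling, had 7 sites each. Gse1 and Med13l, a subunit of the Mediator kinase module, had 6 each, and Tgfbr2, the type II TGF-beta receptor, had 5, as had Uaca and Klf14. A nearest gene is a label of position, and no link between a site and a gene was measured.

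HSC regulators were nearest to 24 sites. The 26 genes of that list were transcription factors, cofactors and RNA-binding proteins known in stem cells, and 10 of them were nearest to at least 1 site, among them Bcl11a, Lmo2, Mecom, Meis1, Myc, Mycn, Runx1, Zfp36l2 and Zfpm1. Their sites were 2.21% of the 1086, whereas 0.508% of all distal windows had a gene of the list as their nearest, and 3.78% of all genes were nearest to a site. Of 16 HSC surface and signalling genes 3 had a site (Cd34, Cxcr4 and Kit, with 4 sites), and of the 11 genes of the study's platelet and multi-lineage panels 2 had one each (Pdgfc and Sox4). Among 12 lymphoid genes only Ets1 had a site, and none of the 8 myeloid genes or of the 5 autosomal erythroid genes did. These last lists covered little distal ground, 0.0113% and 0.0154% of distal windows. Shares of sites and of distal windows were 0.368% and 0.0625% for the surface and signalling genes and 0.184% and 0.116% for the panels. For the lymphoid genes they were 0.0921% and 0.211%.

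The Runx1 locus, which encodes a factor needed for definitive haematopoiesis, held 4 sites. The one in its intron at chr16:92621001-92621500 had 703 fragments, and the others, outside genes and 202601, 303601 and 371601 bp from the start, had 417, 357 and 354. Meis1, a homeobox factor required by HSCs, had 3: an intronic site with 345 fragments, and sites with 334 and 1134 fragments near the noncoding 8430419K02Rik. Mecom, a zinc-finger factor of long-term HSCs, had 2 intronic sites with 350 and 421 fragments. Zfp36l2, an RNA-binding protein that speeds mRNA decay, had 4 with 866, 657, 453 and 570 fragments. The one with 866 lay 231 bp from the start of the noncoding AC091309.5. Bcl11a, a repressor of fetal globin, had 2 (674 and 378), Myc 2 (339 and 406), and Mycn (650), Lmo2, an adaptor of the GATA and SCL complex (597), and Zfpm1, a cofactor of GATA1 (419), had 1 each. The site labelled Zfpm1 lay inside Gm20388 and within 1 kb of a RefSeq coding start of Zfp469. Of the 4 Runx1 sites 3 were below the median depth of 428.

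The distal Myc region, known for an enhancer cluster used by blood stem cells, held 3 sites whose nearest gene by position was Gsdmc. They lay 1.66, 1.68 and 1.74 Mb from the Myc start with 1664, 614 and 342 fragments, and the strongest had a fragment in 35.3% of cells (95% interval 33.7% to 36.9%).

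Short fragments, which come from DNA free of nucleosomes, were more frequent at the sites than in the windows of the same library compared here. Each site was represented by its strongest window, whereas the compared sets held every window in their range, including those beside a peak. The part of this in the shares was not tested. Of the 600302 fragments over the sites, 46.1% (95% interval 46% to 46.3%) were shorter than 150 bp, 27% were 150 bp or more but under 300 bp and 26.9% were at least 300 bp, with a median of 169 bp. At the 21876 strong windows around coding starts 40.7% were shorter than 150 bp (40.6% to 40.7%) and the median was 194 bp. At 7539 distal windows with 100 or more but under 300 fragments 31.2% were (31.1% to 31.3%), with a median of 232 bp. At the median site the share was 45.4%, and it was 42.6% when 200 fragments were enough for a site and 49.4% when 500 were needed, so it moved with the total that chose the windows. With repeat-like sites left out, the share was 46.9% over 839 sites of no annotated start, 46.3% over 185 with a noncoding start and 42.3% over 17 with a RefSeq coding start, and the medians per site were 46.4%, 41.6% and 37.7%. Each fragment had been read by 6.57 pairs on average at the sites, 6.65 at starts and 5.89 at the weaker distal windows.

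**Figure D2:**
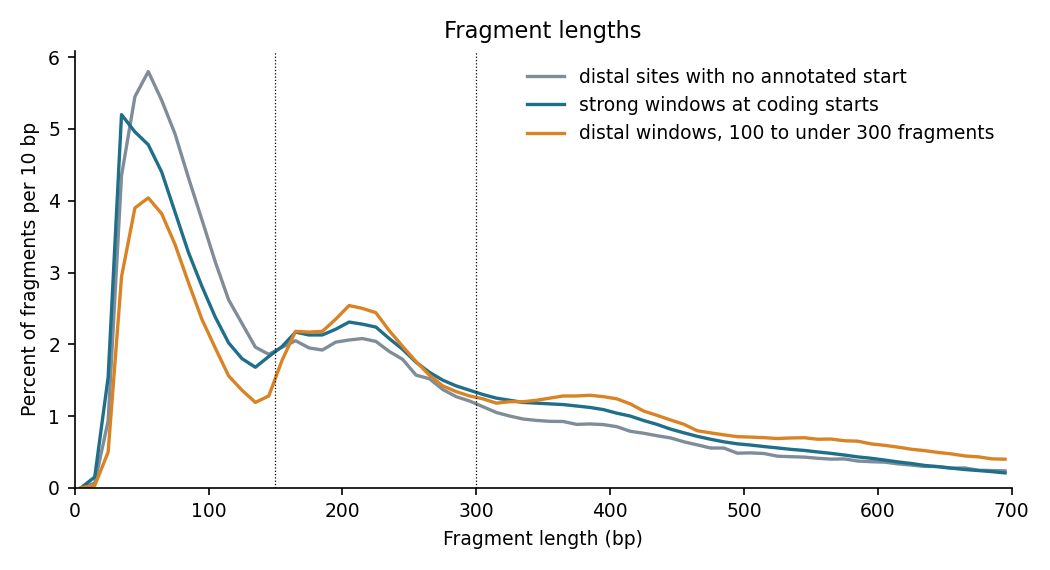
Percent of fragments per 10 bp of length against fragment length in bp for 839 sites with no annotated start that were not repeat-like (grey), 21876 strong windows at coding starts (blue) and 7539 distal windows with 100 or more but under 300 fragments (orange), with dotted lines at 150 and 300 bp. In that order 46.9%, 40.7% and 31.2% of fragments were shorter than 150 bp, and 26.4%, 30.3% and 39.2% were at least 300 bp.

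Words of ETS and RUNX factors were found in many sites, and matches of the longer CTCF consensus in few. Relative to all distal windows, the CTCF share was 30 times as high, the ETS share 1.55 times and the RUNX share 1.36 times. Each share is set beside that of all distal windows and of strong windows at starts, and then beside the 7539 distal windows with 100 or more but under 300 fragments. The ETS word AGGAAG occurred in 66.6% of the 1086 windows (95% interval 63.7% to 69.4%), in 43.1% of all distal windows and in 45% of strong windows at starts. The longer PU.1 word GAGGAAGT, which contains the ETS word, occurred in 8.93% (7.3% to 10.8%) against 2.95% and 3.55%. The RUNX word TGTGGT occurred in 40% (37% to 42.9%) against 29.3% and 19.4%. The AP-1 word TGANTCA occurred in 24.3% (21.8% to 27%) against 14.7% and 7.3%, and the E-box CAGCTG in 32.7% (29.9% to 35.6%) against 14.9% and 22.7%. The CTCF consensus was found in 46 sites, 4.24% (3.12% to 5.61%), against 0.141% and 1.26%. The weaker distal windows were closer to the sites, with 60.4% for ETS, 6.95% for PU.1, 38% for RUNX, 18.2% for AP-1, 26% for CAGCTG and 5.47% for CTCF. The RUNX and CTCF shares there lay within the intervals of the sites, and the CTCF share was above that of the sites. With 200 fragments enough for a site the CTCF share was 6.2%, and with 500 needed it was 2.76%. Both strands were searched in every case, and the GC content of the window sets differed as given above, so that their part in these shares was not tested.

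The GATA, MEIS and HLF words and the E-box CAGATG were no more frequent than in all distal windows, or barely so. The GATA word AGATAA occurred in 25% of sites (22.5% to 27.7%) and in 32.5% of distal windows, with 25.1% in the weaker ones, the E-box CAGATG in 30.6% and 33.4%, and the MEIS word TGACAG in 30.7% and 28%. The HLF word TTACGTAA was found in 1 site (0.0921%, and 0.0967% of distal windows). The C/EBP word TTNCGCAA was found in 8 sites (0.737%, 0.319% to 1.45%). That was 1.75 times the share of distal windows, 0.421%, which lay within the interval of the sites. The KLF/SP word GGGCGGG, common in CpG-rich promoters, was unlike these words. It occurred in 16.1% of sites, 1.48% of all distal windows, 7.64% of the weaker ones and 50% of windows at starts. The ETS, RUNX, AP-1, CAGCTG and CTCF matches crowded within about 100 bp of the densest point of insertion, as the plot of matches by position shows, and the GATA matches did not.

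**Figure D3:**
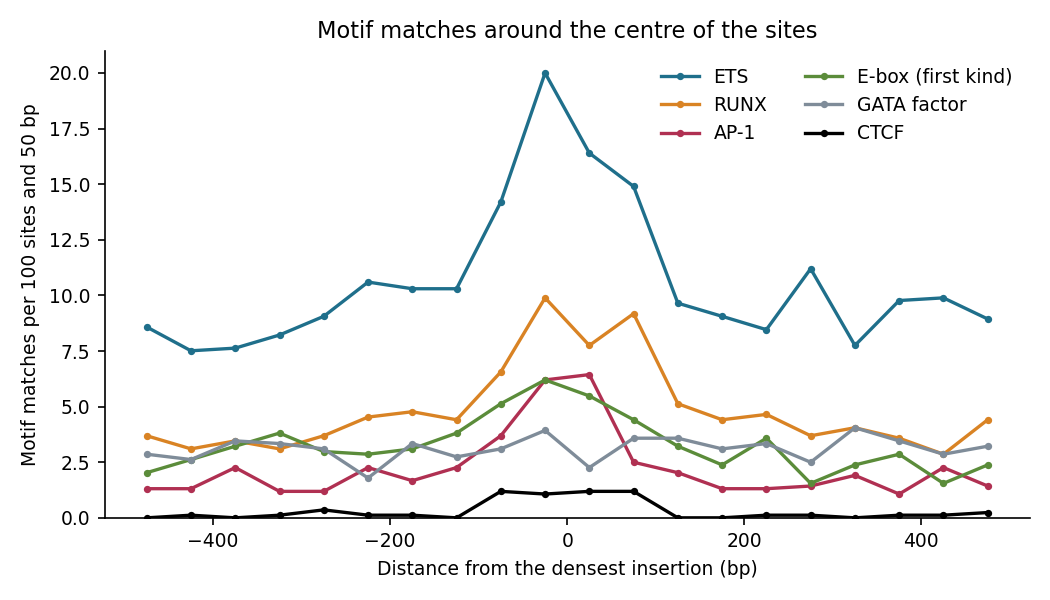
Motif matches per 100 sites and 50 bp (vertical) against distance in bp from the densest insertion (horizontal) for 839 sites with no annotated start that were not repeat-like; "E-box (first kind)" is the word CAGCTG. The ETS line peaks at 20 matches per 100 sites just left of the centre, while the GATA line runs between 1.79 and 4.05 throughout.

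Repeat-like sites were 45 of the 1086. Of these, 20 had at least 50% of their bases masked as repeats in the reference, 24 had a match elsewhere over at least 80% of the window at 90% identity or more, and 2 had 5 or more fragments in over 5% of the cells with any; 1 site met a pair of these criteria. No site had an excess of fragments outside called cells, whose share ran from 1.67% to 8.86% by site against 6.35% over all autosomal fragments. No window matched the mitochondrial genome. A further 41 sites that met no criterion shared at least 100 bp at 85% identity or more with another place, here called a shorter copy, a measure added after the values were seen. Neither was found in 1000 sites.

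The strongest of all sites was one of the 2 with many fragments per cell. At chr17:39845001-39845500, in a stretch of 13 windows annotated with ribosomal RNA sequence and the noncoding Gm42418 and labelled by its nearest coding gene Esp38, there were 20600 fragments. Of the cells with a fragment there 55.4% held 5 or more. The other, at chr11:109011501-109012000 nearest to Axin2, had 4040 fragments and 9.4% such cells, and the next highest site of all had 4.37%. Together both held 4.1% of the fragments of the sites. Other repeat-like sites with many fragments were nearest to 4930467E23Rik (998, with 6 matches elsewhere), Zfp97 (909, with 3) and Gm11232 (797, with 1). The repeat-like sites did not differ much from the rest in depth, with a median of 475 fragments against 426.

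Sites seldom opened together in the same cell more often than their frequency and the depth of each cell gave. Over the 886 pairs 5.5 to 500 kb apart, the median log2 ratio of observed to expected cells was -0.02 (interval -0.03 to -0.00), and over 556784 pairs on different chromosomes it was -0.03. No pair of the 886 passed 1.5-fold above expectation and 3 lay as far below it. Of the 556784 pairs on different chromosomes 321, 0.0577%, passed it upwards and 3927 lay as far below. Pairs closer than 5.5 kb, whose windows 1 fragment can join, had a median of 0.09 (-0.01 to 0.13) over 49 pairs with 3 past 1.5-fold. The highest pairs within 500 kb were 2 sites near Ntm (51 cells with both, 36.5 expected), 2 near Ksr2 (40 and 28.7) and 2 near Id2 (53 and 38.3). Among sites over 5 Mb apart on 1 chromosome the highest was the pair near Rad51b and Ttc7b (40 and 24.7). On different chromosomes, the highest pairs of sites neither repeat-like nor with a shorter copy were near Matn1 and S1pr3 (48 and 26.2). Next were those near Irf2 and Id2 (50 and 27.3). With the promoter of its own nearest gene, a site had a median of -0.02 over 619 sites with at least 20 expected cells, and 1 passed 1.5-fold. With promoters on other chromosomes the median was -0.03 over 466357 pairs, of which 0.0416% passed. With a median of about 55 expected cells a pair, modest co-opening of a single pair was not detectable at this depth.

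The Matn1 and S1pr3 pair and the Irf2 and Id2 pair were among the 20 pairs on different chromosomes with the highest ratio. Among the same 20 pairs, 6 sites recurred. They lay nearest to Ccdc3 (chr2:5379001-5379500), Arhgef26 (chr3:62159001-62159500), Samd9l (chr6:3201501-3202000), Epm2a (chr10:11492001-11492500), Gphn (chr12:78350501-78351000) and Neto1 (chr18:85698001-85698500), each on its own chromosome. The set was defined after its values were seen, so its co-opening is a description. All 15 pairs of the 6 passed 1.5-fold, with log2 ratios from 0.59 to 0.98 and a median of 0.76. The Arhgef26 and Gphn sites, for example, were open together in 70 cells where 35.3 were expected, and the Ccdc3 and Samd9l sites in 125 where 73.6 were expected. At least 3 of the 6 were open in 217 cells against 102 expected, and at least 4 in 66 against 12.4. The median was 0.82 without the deepest 5% of cells and 0.85 with 13 of 15 pairs past 1.5-fold when cells were thinned to 6000 fragments, which left out 264 shallower cells.

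**Figure D4:**
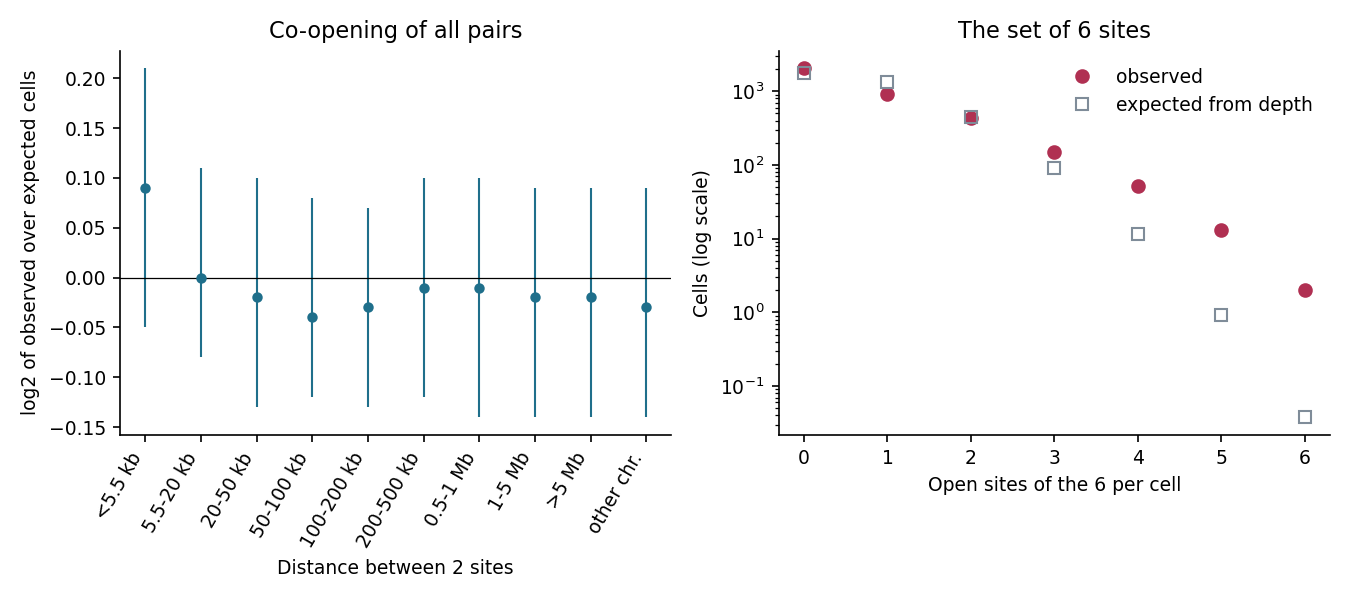
Left, median (points) and quartiles (lines) of the log2 ratio of observed to expected cells with both sites open, by the distance between the sites; pairs closer than 5.5 kb have the highest median, 0.09 with an interval of -0.01 to 0.13 that includes 0. Right, number of cells (log scale) with 0 to 6 of the 6 recurring sites open, observed (red) and expected from site frequency and cell depth (open squares), with 66 cells observed at 4 or more against 12.4 expected.

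These 6 sites were not repeat-like by the criteria above, yet all 6 held a shorter copy, of 131 to 314 bp at 85.3% to 99.5% identity, where 3.94% of sites that were not repeat-like did. The shorter copy measure was added after these pairs were seen, so this contrast is a description and supports nothing. A stretch of 170 bp of the Samd9l site matched the ribosomal RNA stretch of chromosome 17 at 95.3% identity, and outside the set so did 142 bp of the repeat-like Pfkp site at 87.3% and 54 bp of the Cdk19 site at 87%. The Arhgef26 and Epm2a sites shared 267 bp with each other at 80.5% identity. A 314 bp stretch at the Ccdc3 site was 95.2% identical to one at the strong Gm8797 site. Both shared stretches are printed to show how far sites on different chromosomes resemble each other, the first pair below the 85% used for a copy; capitals mark the bases that differ within a pair, and of the longer stretch 298 and 300 bases are shown.
Arhgef26 site, chr3:62159204-62159469, plus strand: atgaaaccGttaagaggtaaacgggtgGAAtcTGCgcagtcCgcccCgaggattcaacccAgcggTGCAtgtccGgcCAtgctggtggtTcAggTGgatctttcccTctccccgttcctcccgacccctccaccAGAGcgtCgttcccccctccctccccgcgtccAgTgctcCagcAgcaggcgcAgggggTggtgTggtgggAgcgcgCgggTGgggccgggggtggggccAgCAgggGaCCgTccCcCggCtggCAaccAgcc
Epm2a site, chr10:11492001-11492267, minus strand: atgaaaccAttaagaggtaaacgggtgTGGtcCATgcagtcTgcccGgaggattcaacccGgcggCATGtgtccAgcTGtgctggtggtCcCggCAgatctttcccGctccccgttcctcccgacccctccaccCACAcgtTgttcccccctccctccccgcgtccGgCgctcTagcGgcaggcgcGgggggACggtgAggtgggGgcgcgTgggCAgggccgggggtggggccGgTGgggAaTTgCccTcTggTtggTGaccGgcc
Ccdc3 site, chr2:5379040-5379337, plus strand: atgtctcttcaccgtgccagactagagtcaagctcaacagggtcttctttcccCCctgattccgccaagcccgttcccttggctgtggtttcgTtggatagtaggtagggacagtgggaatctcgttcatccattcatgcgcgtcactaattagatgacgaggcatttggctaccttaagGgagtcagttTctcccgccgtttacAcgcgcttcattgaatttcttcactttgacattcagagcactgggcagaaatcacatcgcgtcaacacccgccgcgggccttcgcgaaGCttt
Gm8797 site, chr3:5860333-5860632, minus strand: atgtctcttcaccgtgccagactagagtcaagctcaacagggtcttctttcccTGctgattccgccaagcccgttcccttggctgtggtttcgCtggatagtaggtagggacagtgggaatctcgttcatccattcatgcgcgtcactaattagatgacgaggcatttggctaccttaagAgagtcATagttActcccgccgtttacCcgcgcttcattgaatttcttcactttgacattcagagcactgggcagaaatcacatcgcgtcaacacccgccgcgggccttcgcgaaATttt

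The Gm8797 site itself opened with the 6 at a mean log2 ratio of 0.53 (0.45 to 0.59), the Axin2 site with many fragments per cell at 0.49 (0.46 to 0.52) and the ribosomal RNA site at 0.16. The ribosomal RNA site had a fragment in 85.5% of cells, which leaves its ratio with any site little room above 0, so these values are not on 1 scale. After Gm8797, the next of the other 1035 sites that were not repeat-like was at 0.27. Of the 770 pairs of sites on different chromosomes that both held a shorter copy 16 passed 1.5-fold, and 15 of these were the pairs of the 6 sites, which were chosen for it. None of 930 pairs of repeat-like sites did. Of 472180 pairs of sites that were neither repeat-like nor held a shorter copy, 264 (0.0559%) did. Fragments of at least 300 bp made up 11.4% at Ccdc3, 29.6% at Arhgef26 and 39.9% at Samd9l. They made up 0.411% at Epm2a, 1.98% at Gphn and 5.06% at Neto1, beside 26.9% over all sites. Pairs per fragment, in the same order of the 6 sites, were 8.25, 7.02, 6.83, 6.45, 8.29 and 8.55, beside 6.57. Whether reads of other copies contributed to the 6 sites or the Gm8797 site was not tested. Neither these sites nor the Axin2 site were compared with the full ribosomal DNA repeat unit, which was not used here.

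The antibodies compared 4 surface proteins by which the study told platelet-biased from multi-lineage HSCs. CD61 is integrin beta 3 of the platelet fibrinogen receptor, CD274 is PD-L1, and CD357 (GITR) and CD27 are receptors of the TNF receptor family. For each, cells near the highest 25% of tag counts were compared with those near the lowest 25% as ties allowed: 779 cells with at least 6 CD61 tags against 727 with at most 1, 937 with at least 27 CD274 tags against 877 with at most 12, 968 with at least 5 CD357 tags against 1200 with at most 1, and 825 with at least 2 CD27 tags against 1578 with 0. A site level is the number of fragments per 1000000 autosomal fragments of the group. A change is counted past 1.5-fold, with no replicate check, and sites named for their bounds need not pass it.

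Among these 4 of the 12 antibodies measured, CD274 had the most sites past 1.5-fold. The rest of the 12 were compared in the same way and are not described here. Of the 1086 sites 41 (3.78%) were higher by over 1.5-fold in CD274-high cells, where 1.3% of all strong autosomal windows were, and 7 (0.645%) were lower, where 0.332% of windows were. Sites are shallower than most windows at starts, and among windows with 300 or more but under 500 fragments 43 of 691 sites (6.22%) passed either way beside 3.19% of all. The median log2 ratio over the sites was 0.12, against 0.05 over all strong windows and 0.03 at starts, and 755 of 1086 lay above 0. Summed over the sites, 163 of 10000 fragments lay in them in CD274-high cells (162 to 164) and 153 in CD274-low cells (152 to 154). CD274-high cells also had a higher share of fragments in peaks, 68.5% against 66.3%, at median depths of 10113 and 10271 fragments, and its part in these values was not tested. With levels scaled by strong windows at coding starts instead of all autosomal fragments, 3.59% of sites passed 1.5-fold either way, against 4.42%.

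For CD61, 25 sites (2.3%) were higher and 13 (1.2%) lower by over 1.5-fold, against a background of 0.824% and 0.482%, and 35 of 691 sites under 500 fragments (5.07%) passed either way beside 2.56%. For CD357, 3 (0.276%) were higher and 4 (0.368%) lower against 0.15% and 0.186%, and 1.01% of the shallow sites passed beside 0.702%. For CD27, 5 (0.46%) were higher and 1 (0.0921%) lower against 0.111% and 0.13%, and 0.868% passed beside 0.501%. The median log2 ratios were 0.04, -0.01 and 0.02. Of the 395 sites with at least 500 fragments, 3 passed for CD61, 5 for CD274 and none for CD357 or CD27. Counting error passes a fixed ratio more often in shallow windows and in smaller groups of cells. These counts therefore neither show where differences lay nor rank the antibodies. With cells split into tertiles instead, 1.93% of sites passed 1.5-fold either way for CD274 and 0.552% for CD61, against 4.42% and 3.5%.

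**Figure D5:**
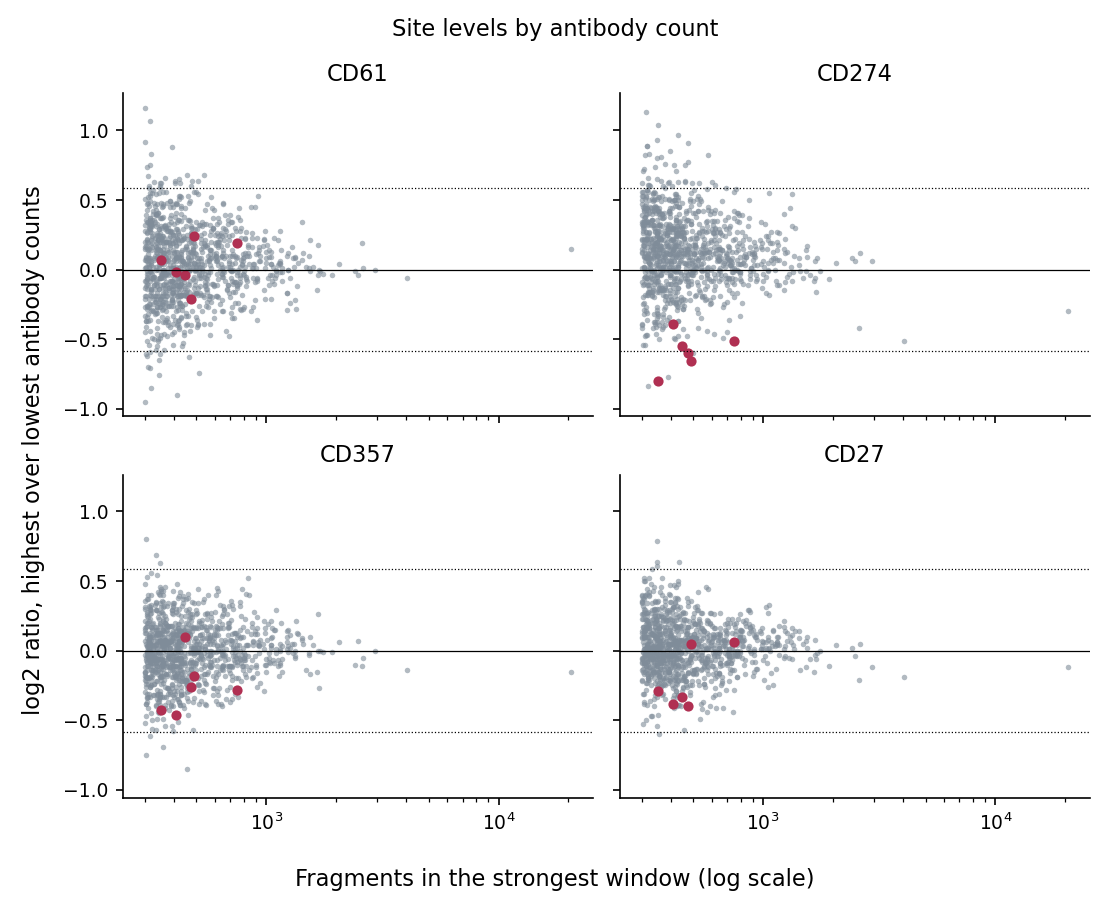
Log2 ratio of site level in cells with the highest over the lowest antibody counts (vertical) against fragments in the strongest window (log scale) for the 1086 sites, 1 panel per antibody; dotted lines mark 1.5-fold and red points are the 6 recurring sites. The CD274 cloud has a median of 0.12 and all 6 red points lie below 0 there, and the scatter narrows with depth in every panel.

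The 2 sites with the highest lower bounds by CD274 lay in introns. The Nrp2 site (chr1:62760001-62760500, in the gene of the receptor neuropilin-2) had a level of 11.7 in CD274-high cells (9.72 to 14) and 5.67 in CD274-low cells (4.24 to 7.44), a log2 ratio of 1.04 (0.57 to 1.55). The Asic2 site (chr11:81411001-81411500, in an ion channel gene) had 11 (9.1 to 13.3) and 5.02 (3.67 to 6.69), a log2 ratio of 1.13 (0.63 to 1.67). In the other direction, the Gadl1 site (chr9:115708501-115709000) had 8.68 (6.96 to 10.7) and 14.8 (12.4 to 17.6), and the Axin2 site with many fragments per cell had 91.9 (86.1 to 98) and 131 (124 to 139). The 7 sites lower by over 1.5-fold were nearest to Mbnl1, Gadl1, Epm2a, Mdm1, Gphn, Jarid2 and Neto1, and 3 of these belong to the 6 recurring sites. All were picked by their values among 1086.

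The 6 recurring sites all had CD274 log2 ratios below 0, namely -0.51 (Ccdc3), -0.39 (Arhgef26, interval -0.79 to -0.00), -0.55 (Samd9l), -0.66 (Epm2a), -0.80 (Gphn) and -0.60 (Neto1). Of these the Epm2a, Gphn and Neto1 sites passed 1.5-fold, and the Ccdc3, Arhgef26 and Samd9l sites did not. Their summed level was 94.3 (88.5 to 100) in the 1021 cells with 2 to 13 CD274 tags, 74.4 (68.8 to 80.3) at 14 to 19 tags, 72.8 (67.3 to 78.7) at 20 to 27 and 65.8 (60.8 to 71.2) at 28 to 110. The summed levels of the other sites that were not repeat-like were 13993, 14595, 14871 and 15018 in the same groups of cells, so the 6 sites were highest where the rest were lowest. The Gm8797 site had a log2 ratio of -0.42 (-0.58 to -0.26) and the ribosomal RNA site -0.30 (-0.36 to -0.25). For CD61 the 6 ratios ran from -0.21 to 0.24. For CD357 they ran from -0.46 to 0.10, with 5 of 6 below 0, and for CD27 from -0.40 to 0.06, with 4 of 6 below 0. Over 1035 other sites, which share cells and depth, the rank correlation of mean co-opening with the set and the CD274 ratio was -0.19, and it was -0.00 for CD61, -0.13 for CD357 and -0.06 for CD27.

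By CD61, the site nearest to Ptpn1, a tyrosine phosphatase gene, at chr2:167833501-167834000 had a level of 10.1 in CD61-high cells (8.06 to 12.4) and 4.47 in CD61-low cells (3.07 to 6.27), and it lay at the start of the noncoding 1200007C13Rik. The Emcn site (chr3:137194001-137194500), nearest to the gene of the sialomucin endomucin and repeat-like by masking, had 11.1 (9 to 13.6) and 5.28 (3.75 to 7.21). Lower in CD61-high cells were the site nearest to Cyp26b1, an enzyme that breaks down retinoic acid, with 5.5 (4.04 to 7.32) and 10.7 (8.46 to 13.3), and the site nearest to Fam49a with 8.08 (6.29 to 10.2) and 15.2 (12.5 to 18.2). Among the 24 sites near HSC regulators, an intronic site of Mecom (log2 ratio -0.61, -1.12 to -0.12) and one of Meis1 (-0.65, -1.12 to -0.19) were lower by over 1.5-fold. None of the others passed it either way. Over all sites 1.2% were lower by that much, and over all strong windows 0.482%. The other Mecom site stood at 0.51 (0.04 to 0.99) and the other Meis1 sites at 0.00 (-0.53 to 0.55) and 0.05 (-0.22 to 0.31).

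By CD357 the highest lower bounds were at the sites near Ipo11, an importin, with a log2 ratio of 0.80 (0.38 to 1.24), and Lrmda, with 0.69 (0.29 to 1.10). The lowest upper bounds were at those near N6amt1, with -0.85 (-1.21 to -0.50), and Gm11146, with -0.75 (-1.22 to -0.32). By CD27 the highest lower bounds were at the sites near Thbs1, which encodes thrombospondin-1 of platelet granules, with 0.79 (0.41 to 1.16), and Klhl29, with 0.64 (0.29 to 0.99). The lowest upper bounds were at those near E030018B13Rik, with -0.57 (-0.96 to -0.21), and Plcl2, with -0.60 (-1.06 to -0.18). The Thbs1 site was also at 0.80 by CD274 (0.34 to 1.28). The 46 sites with a CTCF match had a median CD274 ratio of 0.01. None of them passed 1.5-fold for any of the 4 antibodies, where 4.42% of all sites did for CD274, 3.5% for CD61, 0.645% for CD357 and 0.552% for CD27.

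Joining the markers, 342 cells fell in the platelet-biased gate (CD61 and CD274 above their medians, CD357 and CD27 at or below) and 61 in the opposite, multi-lineage gate. The summed level of the sites was 162 per 10000 fragments (161 to 163) in the first and 157 (154 to 160) in the second, a log2 ratio of 0.05 (0.02 to 0.08), which became 0.01 (-0.02 to 0.04) without the deepest 5% of cells. It was 0.02 (-0.01 to 0.05) with all barcodes of the antibody table and 0.02 (-0.02 to 0.06) with 500 fragments needed. Beyond 100 kb it was 0.07 (0.03 to 0.12), and with centred log ratios of the tags 0.08 (0.06 to 0.10). With 61 cells in 1 gate, single sites could not be compared at this depth.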

How the data were processed

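Single-cell ATAC, RNA and antibody libraries of 1 pool of LT-HSCs were measured. Per the file headers, the authors made the ATAC fragments with Cell Ranger ARC 2.0.2 on mm10. That pipeline calls cells, keeps 1 line per unique fragment and corrects fragment ends for the Tn5 overhang. All deposited values used were raw counts: fragments with their read pairs, totals per barcode, and antibody tags from CITE-seq-Count (version not given in the sources used here). RNA entered only as UMI totals, and doublets were not removed.

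A fragment was counted in every 500 bp window it overlapped. Starts and genes were those of GENCODE M21, RefSeq starts were added for annotation, and sequence came from GRCm38.p6 (mm10). Copies were searched with BLAST+ 2.17.0. Expected co-opening came from the frequency of each site and the depth of each cell. Log2 antibody ratios had 0.5 added to each count. Python 3.11.15, numpy 2.4.6, scipy 1.17.1, pandas 2.3.3 and matplotlib 3.10.9 were used. Antibody ratios with their intervals and co-opening were also run on simulated counts. Apart from cell depth and planted differences, these carried counting error alone, so they do not test the measures under the spread of real cells.

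The members, gene lists and tests were chosen with earlier results of these data known. Sites named were the 10 with the most fragments, 5 repeat-like ones, the 3 farthest, those with the 2 highest lower and 2 lowest upper bounds by CD61, CD274, CD357 or CD27, those near HSC regulators (1 gene of that list is not reported here), the highest pairs and those at the threshold. The sites lower by over 1.5-fold, the distal Myc sites, the 6 recurring sites and the sites compared with them were named after their values were seen. Alternatives were other ways to count fragments, thresholds, distances, cells, antibody scales and repeat criteria.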

Additional observations from a re-analysis of the deposited data

Results flagged for a closer look

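Data outside the autosomal windows also held open sites. Under the same rule, chromosome X had 24 sites with a median of 378 fragments, of which the strongest, nearest to Rab39b, had 1168. Chromosome X was left out of the rule, and a window with no fragment would allow up to 3.

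Unplaced contigs of the assembly held 55771 fragments of the kept cells over 13 contigs. One contig held 44135 of them, 79.1%, and the next 9841. These 2 signals were marked because they lie in data that no comparison above used.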

How the results depend on the processing

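No paired analysis was possible because the 3 libraries carry 1 replicate number and no result comes from a test. Alternatives were run for the number, place, distance, short-fragment share, repeat criteria, motif shares, pair co-opening, shares past 1.5-fold and gate ratio of the sites. Pair co-opening and the gate ratio kept their sign, and a reversal was not defined for the other results. Of 109 values under alternatives other than motif shares, 77 were unmoved. Unmoved values lay within the interval of the main value, or for numbers of sites within 1.5-fold of it. The causes of the shifts below were not tested. The other window sets, the ratios of named sites and the CD274 levels of the 6 recurring sites were not run under the alternatives. Counting each fragment once at its midpoint gave 694 sites, a median share of fragments under 150 bp of 58.3%, co-opening within 500 kb of -0.04 and 2.45% of sites past 1.5-fold for CD61. Counting halved insertions gave 669 sites, 57.7% and -0.03. With 200 fragments there were 2112 sites, 91 of them repeat-like, 42.6% short fragments, and 6.58%, 7.95% and 2.6% past 1.5-fold for CD61, CD274 and CD357. With 500 there were 399 sites, 22 repeat-like, 49.4% short fragments, and 0.752%, 1.25%, 0% and 0% past it for CD61, CD274, CD357 and CD27, beside 3.5%, 4.42%, 0.645% and 0.552% in the report. Beyond 100 kb there were 460 sites, 20 repeat-like, 18.7% inside a gene instead of 23.6%, a median distance of 166112 bp and 46.7% short fragments. Centred log ratios of the tags gave 1.93% for CD61 and 1.38% for CD357, and tertiles gave 0.552% for CD61 and 1.93% for CD274. Without the deepest 5% of cells the gate ratio was 0.01. Requiring 2 criteria left 1 repeat-like site, and counting shorter copies, an alternative chosen after seeing the data, gave 86.

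Of 96 motif shares under alternatives 77 stayed within their interval, and 8 moved in a 300 bp window. Other alternatives chosen after seeing the data were RefSeq starts (992 sites), close pairs kept, and repeat-like or copied sites left out. The depth of under 500 fragments at most sites limits the antibody ratios, and 1 pool gives no replicate spread.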
